A study of Mus musculus with 8 samples.

Results

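Voltage-gated sodium channels, voltage-gated calcium channels and potassium channels, with their auxiliary subunits, were taken from the expression tables by gene symbol: Scn followed by a number and a or b, Cacna, Cacnb, Cacng and Cacna2d followed by a number, and Kcn followed by letters and a number. The rule found 138 of 24849 rows, which carry 137 symbols because Kcnh8 is listed at 2 loci. It also took in 4 non-coding transcripts (Kcnq1ot1, Kcnd3os, Kcnmb4os1 and Kcnmb4os2), which form a group apart from the channel families. They stay in the counts and sums over the 138 rows. Kcnq1ot1 is also counted among the tested channel genes below and among those that rose in wild type. PolyA+ RNA was sequenced from MPI-II mouse embryonic stem cells (mESCs; strain label 129S2/SvPas) in 4 conditions of 2 samples each: wild type and Pcgf5-/-, each at day 0 and at day 6. PCGF5 is a subunit of variant polycomb repressive complexes. The knockout was made with TALE nucleases against the second exon of Pcgf5, and colonies were picked after selection with puromycin and G418, so genotype and the history of a picked clone cannot be told apart. At day 0 both genotypes grew on feeder cells in serum with leukemia inhibitory factor, CHIR99021 and PD0325901, and by day 6 both had been moved to N2B27 medium, which favours neural differentiation. The samples are labelled as replicates without naming separate clones or cultures, so p-values measure the spread between these samples.

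Ion channels set the membrane potential and carry the electrical signals of neurons. The alpha subunits of sodium channels open on depolarization and drive the action potential, voltage-gated calcium channels couple depolarization to transmitter release and gene regulation, and potassium channels bring the membrane back to rest or hold it there. Auxiliary subunits alter the trafficking and gating of the pores. Many neuronal channel genes are held silent outside the nervous system by the repressor REST.

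Expression is given as FPKM, the number of sequenced fragments per kilobase of transcript corrected for how many were mapped in each sample, which allows levels of different genes to be compared. Most channel genes were weakly expressed in every condition. A mean above 1 FPKM was reached by 16 channel rows in wild type at day 0, 19 in Pcgf5-/- at day 0, 30 in wild type at day 6 and 25 in Pcgf5-/- at day 6, and a mean above 10 FPKM by 0, 1, 3 and 4 rows. Kcnj1 and Kcna10 were listed at 0 in all 8 samples. Of the 138 rows, 38 had a mean above 1 FPKM in at least one condition and entered the test, and 100 did not. Among those 100, the highest value in a single sample was 1.39 FPKM, for Kcnj15. The filter is not neutral: 8 rows, among them Cacna2d3, Kcnab2, Kcnc1, Kcng1 and Kcnj4, passed it through wild type at day 6 alone, and Cacng6 and Kcnj3 through Pcgf5-/- at day 6 alone. Counts of called genes among the 38 are therefore a description, and those among the 25 rows with a mean above 1 FPKM over all samples are given beside them.

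Summed over all 138 rows, the non-coding ones included, transcripts made up 67.3 ± 3.64 FPKM in wild type at day 0 and 148 ± 0.254 FPKM in wild type at day 6 (SD, n = 2 in each condition). The sums in Pcgf5-/- were 84.8 ± 8.88 FPKM at day 0 and 141 ± 1.52 FPKM at day 6. A few genes held much of these sums, since the 3 highest gave between 32.1% and 39.1% of the total in each condition. At day 0 these were the background potassium channels Kcnk5 and Kcnk1 and the calcium channel beta subunit Cacnb3, and at day 6 Cacng7, Cacnb3 and Kcnk1. The calcium channel gamma subunits had the largest difference between the days, from 4.38 ± 1.04 to 28.7 ± 0.555 FPKM in wild type and from 6.27 ± 2.43 to 28.3 ± 2.1 FPKM in Pcgf5-/-. At day 6 the sum of the sodium channel alpha subunits was 4.96 ± 0.0887 FPKM in wild type compared with 2.34 ± 0.191 FPKM in Pcgf5-/-. The 2-pore potassium channels were the other way round, with 20.4 ± 1.78 FPKM in wild type compared with 32.4 ± 1.14 FPKM in Pcgf5-/-.

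**Figure D1:**
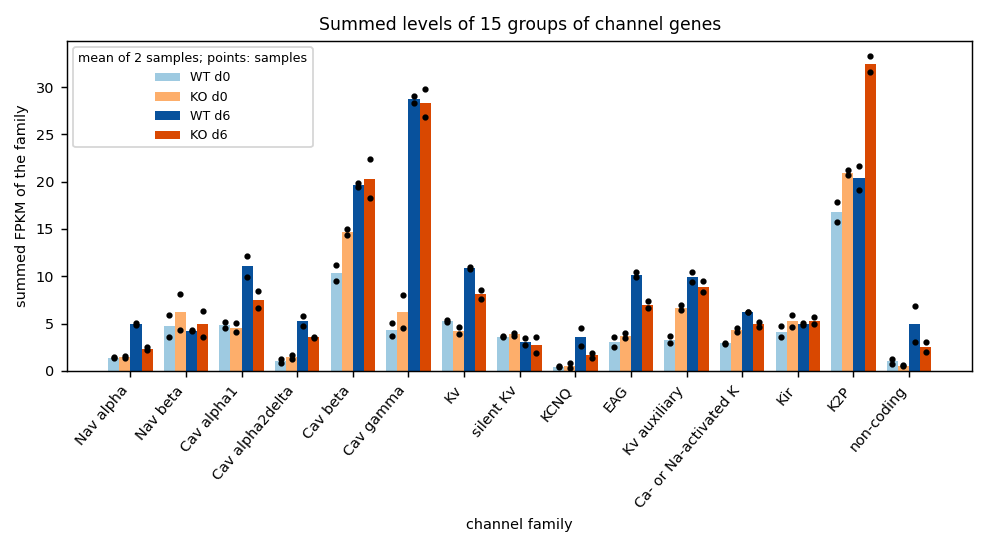
Summed FPKM (vertical axis, from 0) of 15 groups of rows, the channel families and the non-coding transcripts (horizontal axis), in wild type (WT) and Pcgf5-/- (KO) at day 0 (d0) and day 6 (d6). Bars are means of 2 samples and points are the samples. The gamma subunits of calcium channels stand at 28.7 FPKM in wild type compared with 28.3 FPKM in Pcgf5-/- at day 6, while the 2-pore (K2P) group is highest in Pcgf5-/- at day 6 and the sodium channel alpha group in wild type at day 6.

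Pcgf5 itself was at 5.18 and 3.63 FPKM in wild type at day 0 against 1.28 and 1.84 FPKM in Pcgf5-/-, and at 9.16 and 5.06 FPKM at day 6 against 0.669 and 0.457 FPKM. At day 6 neural progenitor markers summed to between 469 and 489.9 FPKM in wild type compared with 180.0 to 194 FPKM in Pcgf5-/-, neuron markers to between 462 and 645 against between 239 and 270.1 FPKM, and naive pluripotency markers to between 121 and 289 against between 794 and 925 FPKM. Of the 14 genes in each of these lists, 11 progenitor and 6 neuron markers were lower and 13 pluripotency markers were higher in Pcgf5-/- at day 6, and none was at 0 in all samples. These lists move with every difference between the genotypes at day 6 given below, and their part in it was not tested. In bulk samples, fewer cells of a type and less RNA per cell cannot be told apart. Feeder fibroblast markers summed to between 197 and 678 FPKM at day 0, highest in Pcgf5-/- sample #2, and to between 15.7 and 41.4 FPKM at day 6. Among the other lists at day 6, neural crest markers summed to between 55.3 and 68.5 FPKM in wild type compared with 17.2 to 19.7 FPKM in Pcgf5-/-, and endothelium markers to between 5.49 and 9.59 against between 27.3 and 31.5 FPKM. Muscle markers summed to between 7.71 and 15.4 against between 15.1 and 16.0 FPKM, glia markers to between 8.37 and 8.77 against between 10.1 and 10.5 FPKM, and extraembryonic endoderm markers to between 8.70 and 58.9 against between 7.87 and 17.3 FPKM. Genes of chromosomes 6 and 11 were shifted upwards in Pcgf5-/-, with median log2 differences of 0.41 and 0.48 at day 0 and 0.37 and 0.38 at day 6, against 0.04 to 0.12 and -0.06 to 0.03 for the other chromosomes. These chromosomes hold 21 channel rows, of which 5 were tested (Cacna1g, Cacnb1, Cacng4, Kcnj12 and Kcnab3, all on chromosome 11).

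The first comparison asks which channel genes differ between stem cells and cells after 6 days of neural induction. In wild type, 22 of the 38 tested channel genes rose and 3 fell (limma on log2(FPKM + 1), adjusted p under 0.05), where 34.2% of all tested rows rose and 16.2% fell. The median log2 fold change was 0.77 for the channel genes and 0.22 for all rows tested. In Pcgf5-/- 15 rose and 3 fell, against 21.9% and 10.4% of all rows, with medians of 0.48 and 0.13. Among the 25 rows with a mean above 1 FPKM over all samples, 12 rose and 3 fell in wild type, against 33.3% and 16.5% of the 12166 rows that passed the same filter, and 8 rose and 3 fell in Pcgf5-/-, against 21.4% and 10.3%. Quantile normalization moved the median of all rows to 0.005 in wild type and 0.025 in Pcgf5-/-, and the split then was 14 higher and 8 lower in wild type (24.1% and 22.9% of all rows) and 6 higher and 5 lower in Pcgf5-/- (14.8% and 13.1% of all rows). Over all 136 channel rows above 0 in some sample, both day 6 samples were above both day 0 samples for 85 rows in wild type and 68 in Pcgf5-/- (42.2% and 36.8% of all rows above 0), and below for 17 and 11 (24.2% and 21.5%). 13 channel genes passed the test in both genotypes, with the same sign in all 13, a further 12 in wild type and a further 5 in Pcgf5-/-, which by itself does not show a difference between the genotypes. How all rows divide over these classes is not given here, so the counts only describe the channel genes. In Pcgf5-/- the count of 18 was lower without day 0 sample #1 or without either day 6 sample. The share of all rows called in those fits is not given here.

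**Figure D2:**
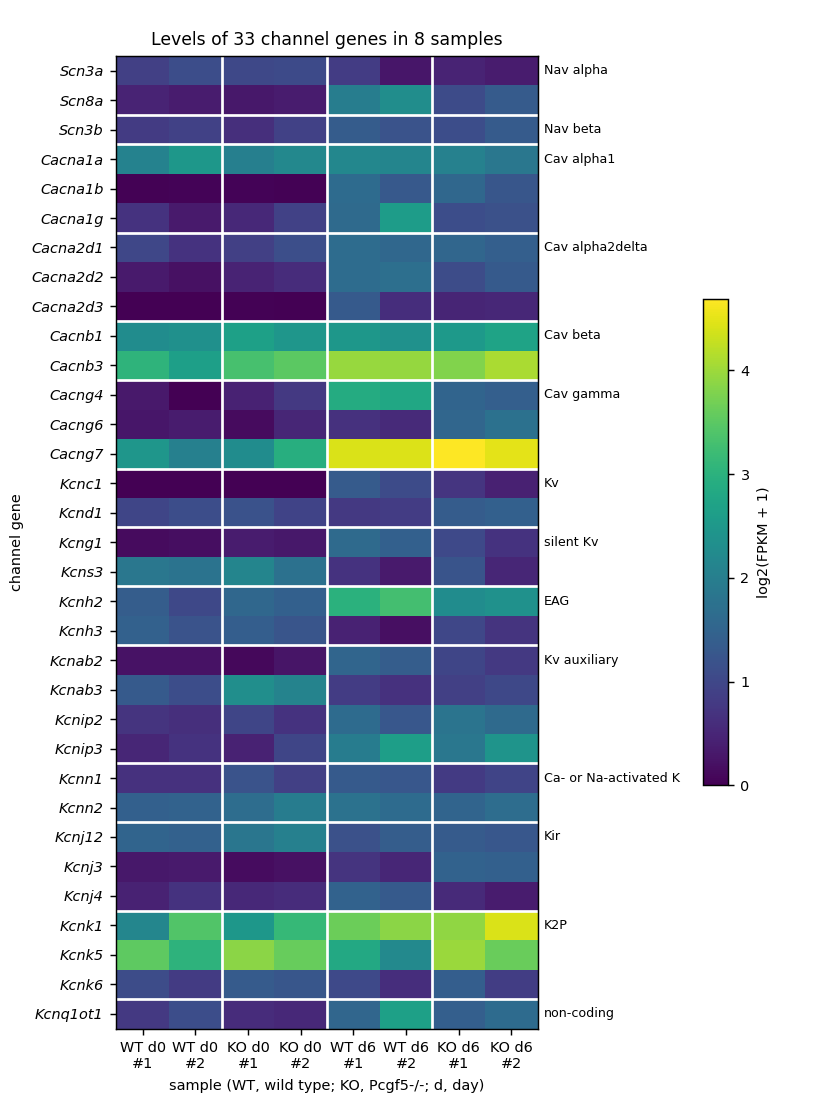
Levels of 33 of the 38 tested channel genes as log2(FPKM + 1) (colour) in the 8 samples (columns; WT, wild type; KO, Pcgf5-/-; d, day; # replicate number), ordered by channel family (rows). Cacng7 and Kcnk1 are among the brightest rows at day 6 in both genotypes, Cacng4 is brightest in the wild-type samples of day 6, and Kcnc1 and Cacna1b are dark in all day 0 samples.

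Among the sodium channel alpha subunits, Scn8a (Nav1.6, the main channel of mature nodes of Ranvier; chromosome 15, 100701076 to 100876369 in mm9) was the 1 member that rose. Its levels were 0.391 and 0.284 FPKM in wild type compared with 0.236 and 0.281 FPKM in Pcgf5-/- at day 0. At day 6 they were 2.94 and 3.93 FPKM in wild type compared with 1.09 and 1.55 FPKM in Pcgf5-/-. The day 6 samples were above the day 0 samples in both genotypes, and the 2 genotypes did not overlap at day 6. The log2 fold change over the days was 1.72 ± 0.20 in wild type (SE; limma adjusted p = 0.000242) and 0.88 ± 0.20 in Pcgf5-/- (limma adjusted p = 0.0117). The call in Pcgf5-/- was lost without day 0 sample #1 (0.85, limma adjusted p = 0.0563) or day 6 sample #2 (0.73, limma adjusted p = 0.0698).

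Scn3a, the sodium channel of the embryonic brain, was the highest alpha subunit at day 0, with 0.859 and 1.15 FPKM in wild type compared with 1.01 and 1.06 FPKM in Pcgf5-/-. At day 6 it stood at 0.778 and 0.217 FPKM in wild type compared with 0.382 and 0.288 FPKM in Pcgf5-/-, below all day 0 samples, and it did not pass the test in either genotype. Unlike Scn8a, the central neuron channels Scn1a and Scn2a1 were low throughout: Scn1a did not exceed 0.183 FPKM and Scn2a1 did not exceed 0.289 FPKM in any sample. Scn9a, known from pain-sensing neurons, was at most 0.00970 FPKM at day 0 and stood at 0.646 and 0.399 FPKM in wild type compared with 0.316 and 0.273 FPKM in Pcgf5-/- at day 6, under the filter of the test. The skeletal muscle channel Scn4a reached at most 0.0487 FPKM. Of the beta subunits, which bind the alpha subunits and act in cell adhesion, Scn3b was between 0.558 and 0.883 FPKM at day 0 and between 1.16 and 1.56 FPKM at day 6, and passed no test.

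The pore-forming calcium channel subunits included 2 that rose in wild type. Cacna1b (Cav2.2, the N-type channel of presynaptic terminals; chromosome 2, 24459409 to 24618672) was at most 0.0374 FPKM in all day 0 samples, and at day 6 it was at 2.12 and 1.48 FPKM in wild type compared with 1.97 and 1.39 FPKM in Pcgf5-/-. The genotypes overlapped at day 6, and the log2 fold change was 1.44 ± 0.19 in wild type (limma adjusted p = 0.000542) and 1.37 ± 0.19 in Pcgf5-/- (limma adjusted p = 0.00182). Cacna1g (Cav3.1, a low-voltage-activated T-type channel; chromosome 11, 94269705 to 94335512) was at 0.605 and 0.263 FPKM in wild type at day 0 and at 2.08 and 4.99 FPKM at day 6, a log2 fold change of 1.59 ± 0.31 (limma adjusted p = 0.00345). In Pcgf5-/- it was at 0.461 and 0.869 FPKM and then at 1.17 and 1.25 FPKM. The replicates of wild type at day 6 lay far apart for this gene. Cacna1a (Cav2.1, the P/Q-type channel) was the highest alpha1 subunit at day 0 and lay between 2.63 and 4.59 FPKM in all samples without a call. Cacna1c (Cav1.2, the L-type channel of heart and neurons) reached at most 0.998 FPKM, in wild type at day 6.

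The auxiliary calcium channel subunits gave the largest changes on the log2(FPKM + 1) scale. Cacng7 and Cacng4 encode transmembrane proteins of the gamma family, several of which are known as regulators of AMPA receptors. Cacng7 was at 4.53 and 3.13 FPKM in wild type compared with 3.87 and 6.62 FPKM in Pcgf5-/- at day 0, and at 20.4 and 20.7 FPKM against 24.8 and 21.6 FPKM at day 6. All day 6 samples were above all day 0 samples, with log2 fold changes of 2.17 ± 0.24 in wild type (limma adjusted p = 0.000217) and 1.99 ± 0.24 in Pcgf5-/- (limma adjusted p = 0.000958). Cacng4 was at 0.249 FPKM and listed at 0 in wild type and at 0.371 and 0.705 FPKM in Pcgf5-/- at day 0, and at 6.42 and 5.90 FPKM against 1.87 and 1.67 FPKM at day 6. Its log2 fold change was 2.68 ± 0.20 in wild type (limma adjusted p = 3.37e-05), the largest rise of any tested channel gene on that scale, and 0.86 ± 0.20 in Pcgf5-/- (limma adjusted p = 0.0142). Because 1 sample of wild type at day 0 is listed at 0, the fitted value depends on the 1 FPKM added before taking logarithms.

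The alpha2delta subunits, which raise the number of calcium channels at the membrane, included 3 tested members that all rose in wild type. Cacna2d2 rose from 0.262 and 0.159 FPKM to 2.14 and 2.27 FPKM, a log2 fold change of 1.41 ± 0.18 (limma adjusted p = 0.000384), and in Pcgf5-/- from 0.381 and 0.504 FPKM to 1.13 and 1.5 FPKM, a log2 fold change of 0.68 ± 0.18 (limma adjusted p = 0.0209). Cacna2d1, the highest member over all samples, stood between 0.610 and 1.19 FPKM at day 0 and between 1.67 and 2.15 FPKM at day 6 over both genotypes. Cacna2d3 was listed at 0 in both wild-type samples at day 0 and reached 1.51 and 0.530 FPKM at day 6. Of the beta subunits, which bind the pore from inside the cell, Cacnb3 was the highest, at 7.25 and 5.27 FPKM in wild type at day 0 and 14.6 and 14.4 FPKM at day 6, a log2 fold change of 1.11 ± 0.19 (limma adjusted p = 0.00188). In Pcgf5-/- it was at 8.97 and 10.4 FPKM and then at 12.9 and 16.1 FPKM, which did not pass the test. Cacnb1 stayed between 3.85 and 5.61 FPKM in all samples.

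Voltage-gated potassium channels differed among themselves. Kcnh2 (hERG, which carries the rapid delayed rectifier current of the heart and is also expressed in neurons; chromosome 5, 23825407 to 23857422) was at 1.62 and 1.03 FPKM in wild type at day 0 and 6.98 and 8.78 FPKM at day 6, a log2 fold change of 1.94 ± 0.21 (limma adjusted p = 0.000174). In Pcgf5-/- it was at 1.97 and 1.72 FPKM and then at 3.87 and 4.18 FPKM, a log2 fold change of 0.82 ± 0.21 (limma adjusted p = 0.0180). Its relative Kcnh3 went the other way in wild type, from 1.75 and 1.29 FPKM to 0.366 and 0.137 FPKM, a log2 fold change of -1.01 ± 0.20 (limma adjusted p = 0.00388). In Pcgf5-/- Kcnh3 was at 1.65 and 1.34 FPKM and then at 0.997 and 0.635 FPKM, without a call.

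Kcng1 and Kcns3 belong to the silent subunits, which form no channel alone and modify other channels, and they too went in opposite directions in wild type. Kcng1 rose from 0.0939 and 0.132 FPKM to 2.07 and 1.71 FPKM, a log2 fold change of 1.37 ± 0.19 (limma adjusted p = 0.000559). Kcns3 fell from 2.61 and 2.46 FPKM to 0.612 and 0.259 FPKM, a log2 fold change of -1.31 ± 0.27 (limma adjusted p = 0.00462). In Pcgf5-/- Kcns3 fell from 3.40 and 2.35 FPKM to 1.32 and 0.427 FPKM, a log2 fold change of -1.08 ± 0.27 (limma adjusted p = 0.0189), a call that was lost without day 0 sample #1 (-0.88, limma adjusted p = 0.108) or day 6 sample #2 (-0.73, limma adjusted p = 0.108).

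The Shaw-type channel Kcnc1 (Kv3.1, which lets neurons fire at high rates; chromosome 7, 53651838 to 53694074) was listed at 0 in all 4 day 0 samples. At day 6 it was at 1.54 and 1.11 FPKM in wild type compared with 0.648 and 0.346 FPKM in Pcgf5-/-. It passed the test in both genotypes, with the limit that a difference from values listed at 0 depends on the added 1 FPKM. Kcna1 (Kv1.1), an axonal channel, did not exceed 0.166 FPKM.

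Kcnq1, a potassium channel of heart and epithelia, did not exceed 0.109 FPKM, whereas Kcnq1ot1, an imprinted non-coding RNA that runs antisense within Kcnq1, was at 0.708 and 1.17 FPKM in wild type at day 0 and 1.94 and 5.31 FPKM at day 6. Strand was not stated for these libraries, so reads of antisense partners cannot be told apart. The same holds for Kcnmb4, a beta subunit of the large-conductance calcium-activated channel, at 0.564 and 1.05 FPKM in wild type compared with 0.202 and 0.163 FPKM in Pcgf5-/- at day 6, whose locus overlaps Kcnmb4os1 and Kcnmb4os2.

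Auxiliary subunits of Kv channels included Kcnip3 (a calcium sensor of A-type channels, also known as the repressor DREAM), which was at 0.416 and 0.616 FPKM in wild type compared with 0.373 and 0.980 FPKM in Pcgf5-/- at day 0. At day 6 it was at 2.94 and 5.16 FPKM in wild type compared with 2.65 and 4.36 FPKM in Pcgf5-/-, with log2 fold changes of 1.70 ± 0.30 (limma adjusted p = 0.00209) and 1.42 ± 0.30 (limma adjusted p = 0.00934). The call in Pcgf5-/- was lost without day 0 sample #1 (1.16, limma adjusted p = 0.0632) or day 6 sample #2 (1.15, limma adjusted p = 0.0654). The beta subunit Kcnab2 rose from 0.178 and 0.167 FPKM to 1.87 and 1.60 FPKM in wild type, a log2 fold change of 1.22 ± 0.17 (limma adjusted p = 0.000719), and in Pcgf5-/- from 0.0707 and 0.203 FPKM to 0.969 and 0.710 FPKM, a log2 fold change of 0.69 ± 0.17 (limma adjusted p = 0.0182). Kcnab3, of the same beta family, fell in Pcgf5-/- from 4.01 and 3.29 FPKM to 0.861 and 1.03 FPKM, a log2 fold change of -1.25 ± 0.19 (limma adjusted p = 0.00228), while in wild type it was at 1.5 and 1.15 FPKM and then at 0.771 and 0.592 FPKM without a call.

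Kcnip2, a relative of Kcnip3, rose in Pcgf5-/- from 0.965 and 0.600 FPKM to 2.49 and 2.07 FPKM, a log2 fold change of 0.89 ± 0.21 (limma adjusted p = 0.0139) that lost its call without day 0 sample #2 (0.74, limma adjusted p = 0.0694) or day 6 sample #1 (0.79, limma adjusted p = 0.0709). In wild type it rose from 0.621 and 0.556 FPKM to 2.13 and 1.41 FPKM, a log2 fold change of 0.79 ± 0.21 (limma adjusted p = 0.013). Kcne4, which inhibits Kv channels, was at 0.351 and 0.148 FPKM in wild type compared with 0.498 and 1.23 FPKM in Pcgf5-/- at day 0 and was listed at 0 in all 4 day 6 samples. Its highest value came from Pcgf5-/- sample #2, the sample with the highest sum of feeder fibroblast markers (678 FPKM, against 201, 319 and 197 FPKM in Pcgf5-/- sample #1 and wild-type samples #1 and #2), and the part of feeder cells in it was not tested. The inward rectifier Kcnj15 was likewise highest in that sample at day 0, with 1.09 and 0.304 FPKM in wild type compared with 0.532 and 1.39 FPKM in Pcgf5-/-.

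Potassium channels that set the resting potential were less uniform. Kcnk1 (TWIK-1) was at 3.43 and 9.60 FPKM in wild type compared with 4.56 and 7.81 FPKM in Pcgf5-/- at day 0, and at 11.4 and 13.7 FPKM against 14 and 20.4 FPKM at day 6. It passed the test in Pcgf5-/- with a log2 fold change of 1.36 ± 0.40 (limma adjusted p = 0.0345). That call was lost when day 0 sample #1 (1.03, limma adjusted p = 0.188) or day 6 sample #1 (1.61, limma adjusted p = 0.0680) or day 6 sample #2 (1.10, limma adjusted p = 0.173) of Pcgf5-/- was left out, and just missed the threshold without either day 6 sample of wild type (limma adjusted p = 0.05 and 0.0503). Kcnk5 (TASK-2, an acid-sensitive background channel) was at 10.5 and 7.17 FPKM in wild type at day 0 and fell to 6.09 and 3.64 FPKM, a log2 fold change of -0.76 ± 0.26 (limma adjusted p = 0.0430), which was lost in 6 of the 8 fits that left out 1 sample, all but those without wild-type day 0 sample #2 or day 6 sample #1 (limma adjusted p up to 0.261). The small-conductance calcium-activated channel Kcnn2 was between 1.72 and 2.92 FPKM in all samples, and its relative Kcnn1 rose in wild type from 0.597 and 0.585 FPKM to 1.51 and 1.42 FPKM.

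Inward rectifiers showed both directions in Pcgf5-/-. Kcnj3 (GIRK1, a G protein-gated channel of neurons and atria; chromosome 2, 55288381 to 55450556) rose from 0.107 and 0.161 FPKM to 1.78 and 1.71 FPKM, a log2 fold change of 1.28 ± 0.17 (limma adjusted p = 0.00126). In wild type it was at 0.236 and 0.270 FPKM and then at 0.627 and 0.416 FPKM. Kcnj12 (Kir2.2), the highest inward rectifier over all samples, fell in Pcgf5-/- from 2.57 and 3.13 FPKM to 1.53 and 1.42 FPKM, a log2 fold change of -0.63 ± 0.18 (limma adjusted p = 0.0308). The Kcnj12 call was lost without any 1 of the 4 Pcgf5-/- samples (limma adjusted p from 0.0598 to 0.124). Kcnj10, the glial channel Kir4.1, did not exceed 0.607 FPKM.

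**Figure D3:**
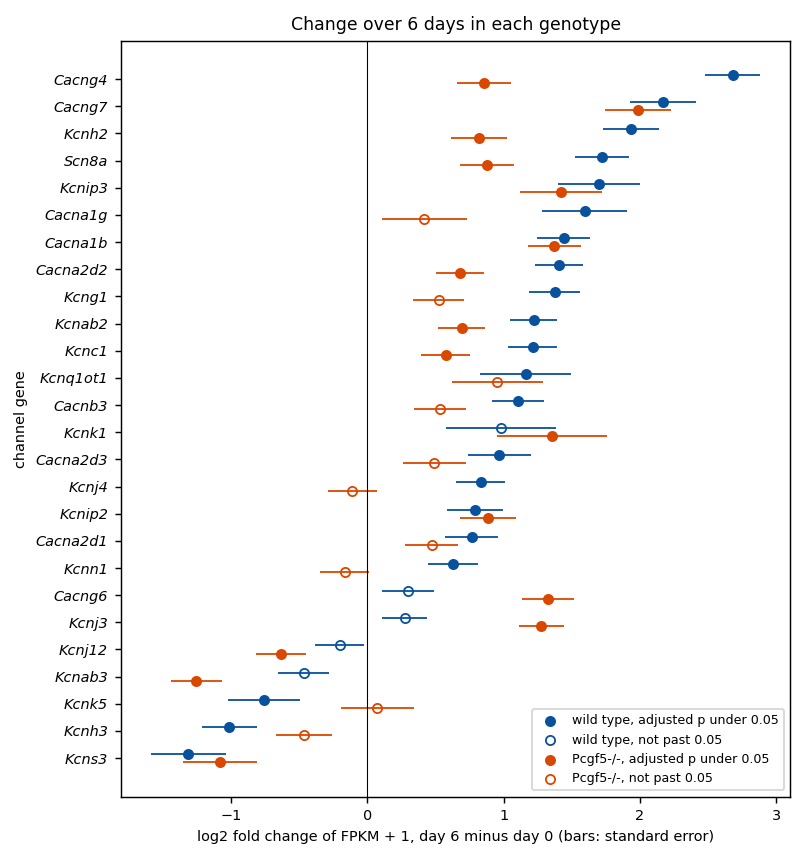
Log2 fold change of FPKM + 1 from day 0 to day 6 (horizontal axis; bars, SE) for 26 of the 30 channel genes past the threshold in wild type (blue) or Pcgf5-/- (orange); filled points have a limma adjusted p under 0.05. Cacng7, Cacna1b and Kcnip3 have overlapping bars in both genotypes, while the wild-type points of Cacng4 (2.68) and Kcnh2 (1.94) lie far to the right of those of Pcgf5-/- (0.86 and 0.82).

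The second comparison asks which channel genes differ between the genotypes. At day 6, 7 of the 38 tested channel genes were lower and 3 were higher in Pcgf5-/- (limma adjusted p under 0.05), against 7.05% lower and 9.57% higher among all rows tested. Among the 25 rows with a mean above 1 FPKM over all samples, 3 were lower and 1 was higher, against 6.68% and 9.79% of all rows that passed the same filter. The median log2 difference was -0.12 for the channel genes and 0.02 for all rows. Over the 136 rows above 0, both Pcgf5-/- samples were below both wild-type samples for 39 rows and above for 27 (24.9% and 28.2% of all rows above 0). The 10 genes past the threshold were weakly to moderately expressed, with the highest mean, 13.1 FPKM, for Kcnk5 in Pcgf5-/-.

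Cacng4 had the largest difference on the log2(FPKM + 1) scale, while as a ratio of means Kcnj4 (4.37-fold lower) and Cacng6 (3.97-fold higher) differed more. Its mean at day 6 was 6.16 ± 0.373 FPKM in wild type compared with 1.77 ± 0.135 FPKM in Pcgf5-/- (SD, n = 2), 3.48-fold lower, with a log2 difference of -1.37 ± 0.20 (limma adjusted p = 0.00734). It was the 1 gene of the 10 that kept its call in all 8 fits that left out 1 sample (limma adjusted p from 0.0118 to 0.0463). With 0.1 FPKM added before taking logarithms in place of 1, its log2 difference was -1.74 and missed the threshold (limma adjusted p = 0.0767). Cacng4 lies on chromosome 11 (107596094 to 107655778), whose genes had a median difference in the opposite direction. On the same chromosome its neighbours were low, with Cacng5 at most 0.183 FPKM and Cacng1 at most 0.202 FPKM in any sample.

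Chromosome 7 holds 4 further gamma subunits, of which Cacng7 (3336685 to 3366537), Cacng8 (3394459 to 3415366) and Cacng6 (3425423 to 3435658) lie side by side. Cacng3, which lies apart from them (129815258 to 129912907), was listed at 0 at day 0 and at day 6 was at 0.193 and 0.302 FPKM in wild type compared with 0.0413 and 0.201 FPKM in Pcgf5-/-, under the filter. Cacng7 was higher in both Pcgf5-/- samples than in both wild-type samples at day 6 but did not pass the test. Cacng8, at 0.779 and 0.581 FPKM in wild type compared with 0.840 and 0.791 FPKM in Pcgf5-/-, was not tested. Cacng6, a gamma subunit known from skeletal muscle, was at 0.598 and 0.478 FPKM in wild type compared with 1.93 and 2.34 FPKM in Pcgf5-/- at day 6, 3.97-fold higher in Pcgf5-/-, with a log2 difference of 1.03 ± 0.19 (limma adjusted p = 0.0125). At day 0 it was at 0.221 and 0.281 FPKM in wild type compared with 0.0990 and 0.419 FPKM in Pcgf5-/-, so it rose in Pcgf5-/- with a log2 fold change of 1.33 ± 0.19 (limma adjusted p = 0.00193).

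Of the sodium and potassium channels that were lower in Pcgf5-/- at day 6, Kcnj4 (Kir2.3, an inward rectifier of neurons and heart) was at 0.479 and 0.274 FPKM against 1.79 and 1.5 FPKM in wild type, a log2 difference of -0.94 ± 0.18 (limma adjusted p = 0.0136). Scn8a was 2.60-fold lower, with a log2 difference of -0.93 ± 0.20 (limma adjusted p = 0.0183) and Kcnh2 1.96-fold lower (-0.82 ± 0.21, limma adjusted p = 0.0324). Kcng1 and Kcnc1 were nearer the threshold, with log2 differences of -0.67 ± 0.19 and -0.64 ± 0.18 (limma adjusted p = 0.0421 and 0.0476). In each of these 5 genes both Pcgf5-/- samples were below both wild-type samples, which the rule for naming genes past the threshold asked for. This comparison shares the wild-type day 6 samples with the comparison of the days in wild type.

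Kcnj3 and Kcnk5 were higher in Pcgf5-/- at day 6. Kcnj3 was 3.35-fold higher, with a log2 difference of 0.85 ± 0.17 (limma adjusted p = 0.0141). Kcnj5 (GIRK4), with which Kcnj3 forms the atrial channel, was listed at 0 in all day 0 samples and at day 6 stood at 0.132 and 0.0944 FPKM in wild type compared with 0.374 and 0.407 FPKM in Pcgf5-/-, below the filter. Kcnk5 was at 14.8 and 11.3 FPKM in Pcgf5-/- against 6.09 and 3.64 FPKM in wild type, 2.69-fold higher, with a log2 difference of 1.28 ± 0.26 (limma adjusted p = 0.0173). At day 0 Kcnk5 was at 13.6 and 11 FPKM in Pcgf5-/-, a range that overlapped its range at day 6.

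Single samples mattered for the other 9 genes. A fit that leaves out 1 sample has 1 sample in that condition, and the share of all rows called in it is not given here. The losses below are therefore not set apart from those of other genes. Kcng1 and Kcnc1 lost their calls in all 8 fits that left out 1 sample (limma adjusted p from 0.0547 to 0.171 and from 0.0596 to 0.182). Kcnh2 lost its call without any 1 of the 4 day 6 samples (limma adjusted p up to 0.182). Without Pcgf5-/- day 6 sample #1 the adjusted p of limma was 0.0560 for Kcnj4, 0.102 for Scn8a, 0.0560 for Cacng6, 0.0710 for Kcnj3 and 0.108 for Kcnk5. Without Pcgf5-/- day 6 sample #2 it was 0.0635 for Kcnj4, 0.0580 for Cacng6 and 0.0510 for Kcnj3. Without wild-type day 6 sample #2 it was 0.0892 for Scn8a, 0.0629 for Cacng6, 0.0656 for Kcnj3 and 0.102 for Kcnk5. With 0.1 FPKM added in place of 1, it was 0.0615 for Kcnh2, 0.104 for Kcng1 and 0.121 for Kcnc1. In none of these fits did a log2 difference change its sign.

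**Figure D4:**
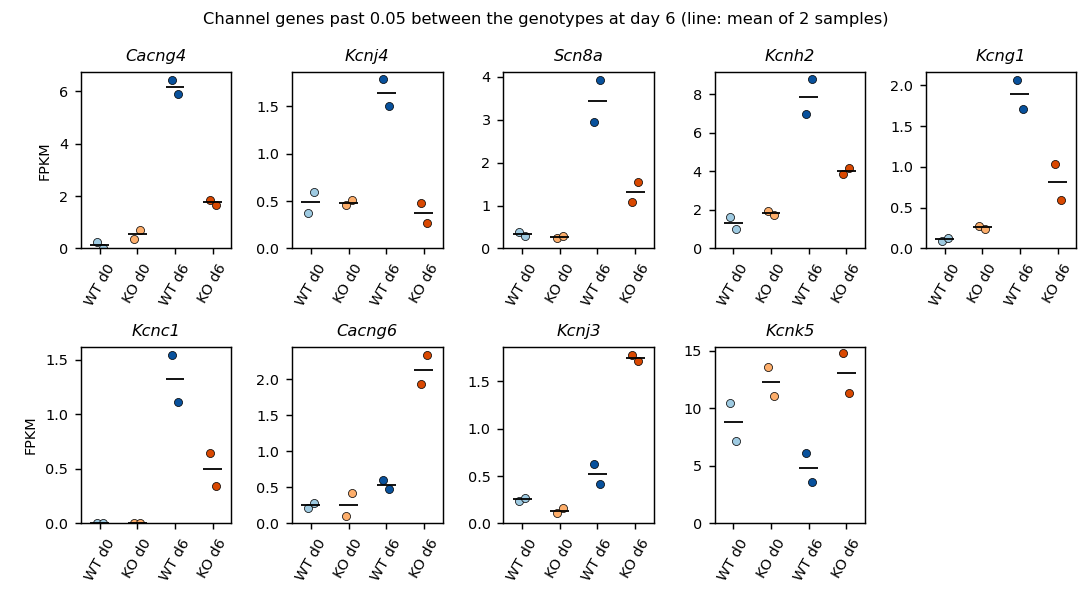
FPKM (vertical axes, from 0) of 9 of the 10 channel genes past the threshold between the genotypes at day 6, in wild type (WT) and Pcgf5-/- (KO) at day 0 (d0) and day 6 (d6). Points are samples and lines are means of 2 samples. The 6 lower genes are near 0 to 2 FPKM at day 0 and highest in wild type at day 6, Cacng6 and Kcnj3 are highest in Pcgf5-/- at day 6, and Kcnk5 in Pcgf5-/- stands near its day 0 level.

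At day 0 no channel gene passed the test between the genotypes, where 0.333% of all tested rows did. Unadjusted limma p-values were under 0.05 for 3 of the 38 channel genes, against 2294 of all 13214 rows tested. A rule that asks for a 1.5-fold difference of the means, without a test, picked 5 channel genes. Its share of all rows is not given here. Kcnab3 was closest to the threshold, at 4.01 and 3.29 FPKM in Pcgf5-/- and 1.5 and 1.15 FPKM in wild type, a log2 difference of 1.00 ± 0.19 (limma adjusted p = 0.0622). With a replicate block within each day it passed (limma adjusted p = 0.0494), as did 2.13% of all rows. Its 4 day 0 samples did not overlap between the genotypes. Cacnb3 followed with a log2 difference of 0.57 ± 0.19 (limma adjusted p = 0.179) and then Kcnj12 with 0.46 ± 0.18 (limma adjusted p = 0.248). Cacng4, also on chromosome 11, and Kcnn1 had log2 differences of 0.45 ± 0.20 and 0.37 ± 0.18 (limma adjusted p = 0.297 and 0.339). Kcnab3 (69139760 to 69146543) and Kcnj12 (60836066 to 60886769) lie on chromosome 11 too, the chromosome with a median difference of 0.48 at day 0. After subtraction of chromosome medians the log2 difference was 0.52 for Kcnab3 (limma adjusted p = 0.366), -0.02 for Kcnj12 (limma adjusted p = 0.979) and -0.03 for Cacng4 (limma adjusted p = 0.974).

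The difference between the genotypes was then compared between the days. Cacng4 was the 1 of 38 channel genes past the threshold, against 3.09% of all rows tested, with a difference of log2 differences of -1.82 ± 0.28 (limma adjusted p = 0.0288). It lost this call in 5 of the 8 fits that left out 1 sample, namely without sample #2 of wild type at day 0 (limma adjusted p = 0.117), of Pcgf5-/- at day 0 (limma adjusted p = 0.0955) or of wild type at day 6 (limma adjusted p = 0.0637), and without sample #1 or #2 of Pcgf5-/- at day 6 (limma adjusted p = 0.106 and 0.0758). It was also lost with 0.1 FPKM added in place of 1 (limma adjusted p = 0.0662) and without the filter on low values (limma adjusted p = 0.0563). Kcnj3 had a value of 1.00 ± 0.23 (limma adjusted p = 0.0585), Kcnh2 of -1.12 ± 0.29 (limma adjusted p = 0.0748), Cacng6 of 1.03 ± 0.27 (limma adjusted p = 0.0755) and Kcnj4 of -0.94 ± 0.25 (limma adjusted p = 0.0805). For these 4 and the remaining channel genes a different response of the genotypes over the 6 days was not shown.

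Genes that work with these channels were described as a list of 49, which holds pacemaker channels, channel scaffolds, sodium pumps, chloride channels and the REST complex. Of the 35 tested, 10 rose and 6 fell in wild type, against 34.2% and 16.2% of all rows tested. In Pcgf5-/- 6 rose and 6 fell, against 21.9% and 10.4%. At day 6, 4 were higher in Pcgf5-/- and 2 lower, against 9.57% and 7.05% of all rows tested, so the list is described and not set apart from other genes. Atp1b2 (1.72), a subunit of the sodium pump, Sptbn4 (0.91), a spectrin of nodes and axon initial segments, and the proton channel Hvcn1 (0.70) were among those higher, by the log2 differences given. Fgf13, which binds sodium channels, was lower by a log2 difference of -1.06, and Rem2, an inhibitor of calcium channels, by -0.74. The limma adjusted p-values of the 6 lay between 0.0123 and 0.0374. Rest itself was at 31.3 and 31.5 FPKM in wild type at day 0 and fell to 12.2 and 6.94 FPKM, a log2 fold change of -1.66 ± 0.38 (limma adjusted p = 0.00674). In Pcgf5-/- it was at 20.3 and 22.6 FPKM at day 0 and at 29.1 and 11.8 FPKM at day 6, with wide replicates, and the genotypes did not differ past the threshold at day 6 (0.94 ± 0.38, limma adjusted p = 0.123).

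The DNA element bound by REST has a core that reads AGCACC, 2 bases of any kind, then GGACAG, and both strands of mm9 were searched for it. It was found 15 times, in 13 of the 138 channel loci (9.42%) and in 443 of the 24702 loci of all rows with a position (1.79%). Channel loci are longer, with a median of 41.1 against 13.9 kb, and per megabase the core occurred 0.959 times in channel loci, 0.484 times in all loci and 0.351 times in the genome. A match is a run of letters and not evidence of binding, and other forms of the element were not searched. The sites below are those in channel genes described above and the 2 nearest to the start of their locus, each shown in the direction of the core with the core in capitals, and coordinates mark the core.
Cacna1a (chr8:86993190-86993203, minus strand): ttgtttgcAGCACCATGGACAGaacccacg
Cacna1b (chr2:24607973-24607986, minus strand): aatggatgAGCACCGTGGACAGgaccaggc
Cacna1b (chr2:24617606-24617619, plus strand): acgccgtcAGCACCACGGACAGctgcctgg
Cacna2d3 (chr14:30470393-30470406, minus strand): tcctgttcAGCACCAAGGACAGcaacagag
Kcnab2 (chr4:151798652-151798665, minus strand): ctggattcAGCACCCAGGACAGctcctgag
Kcnk5 (chr14:20970089-20970102, minus strand): aggtcttaAGCACCGTGGACAGgtgaagtg
Kcnt1 (chr2:25719596-25719609, minus strand): cgggactcAGCACCGCGGACAGctccgcca
Scn3b (chr9:40077329-40077342, minus strand): cttggctcAGCACCACGGACAGtagccttc
The Cacna1b site nearest the start of its locus lies 1053 bases inside it. The site of Scn3b lies in an untranslated region of the gene, 528 bases from the start, that of Kcnt1 in an intron 281 bases from the start, and the others in introns. Of the 13 loci with the core, both wild-type day 6 samples were above both day 0 samples in 10 and below in 1 (Kcnk5). By the same measure, 85 of the 136 channel rows above 0 were above and 17 below. Over all rows above 0 the shares were 42.2% and 24.2%. Loci with the core outside the channel genes were not compared, and a tie between the core and the rise was not tested. Cacna1b, Cacna2d3 and Kcnab2 were low at day 0 and rose in wild type, and Cacna1a and Scn3b did not pass the test. Kcnt1, a sodium-activated potassium channel, did not exceed 0.190 FPKM.

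Promoters were read from RefSeq (GRCm38.p6), as the 250 bases before and 50 after a gene's start. Entries matched 100 channel genes with 135 windows, in which the median number of CG dinucleotides was 9, against 7 over all 32851 windows. The REST core was in none of the channel windows and in 17 of all windows (0.0517%), which says only that these letters are not there. Among the genes that differed between the genotypes at day 6, the windows of Kcnc1 and Kcnj4 held 41 CG dinucleotides each, those of Scn8a 38 and 12, of Kcnk5 26, of Kcnh2 19, of Kcnj3 10 and of Cacng6 8. Cacng4 and Kcng1 had no entry. Kcnc1 was listed at 0 at day 0 and was lower in Pcgf5-/- at day 6, while Kcnj3 was higher in Pcgf5-/- at day 6. Their windows are shown with CG in capitals, as examples of a dense window and of one near the middle of all windows.
Kcnc1 (chr7:46396218-46396517, plus strand): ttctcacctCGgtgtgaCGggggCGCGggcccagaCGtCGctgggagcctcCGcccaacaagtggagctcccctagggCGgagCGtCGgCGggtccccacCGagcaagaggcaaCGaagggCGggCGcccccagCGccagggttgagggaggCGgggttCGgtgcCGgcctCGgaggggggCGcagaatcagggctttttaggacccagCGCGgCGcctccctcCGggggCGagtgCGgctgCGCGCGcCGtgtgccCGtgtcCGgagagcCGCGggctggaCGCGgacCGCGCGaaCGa
Kcnj3 (chr2:55435720-55436019, plus strand): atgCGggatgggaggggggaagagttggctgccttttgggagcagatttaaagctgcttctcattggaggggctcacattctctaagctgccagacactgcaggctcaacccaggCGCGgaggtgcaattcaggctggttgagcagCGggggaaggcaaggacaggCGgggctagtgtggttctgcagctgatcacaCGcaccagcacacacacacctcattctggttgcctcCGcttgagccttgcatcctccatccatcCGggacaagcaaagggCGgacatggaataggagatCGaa
By its number of CG dinucleotides the window of Kcnc1 stands at percentile 96.5 of all windows and that of Kcnj3 at percentile 56.5.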

How the data were processed

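RNA of 8 samples was analysed, 2 for each genotype and day. The authors trimmed adapters and low-quality bases, removed short, duplicate and N-rich reads, aligned the pairs to mm9 with TopHat2 2.0.4 and computed the deposited FPKM values with Cufflinks 2.1.1 (versions per the submitters' processing notes); the annotation is not given in the sources used here. Removing duplicates lowers the most abundant transcripts. Absolute depth was not used; relative depths traced from the low values differed at most 1.32-fold. Rows with a mean FPKM above 1 in at least one condition (13214) were fitted as log2(FPKM + 1) with limma 3.58.1 in R 4.3.3, with all samples, one mean per condition and a variance trend. The fit was tested on simulated data with changes planted only in well-expressed rows, so that test does not cover the weakly expressed channel genes. Benjamini-Hochberg adjustment ran over all 13214 rows, with a threshold of 0.05. Fold changes on this scale understate those of low genes.

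The members and gene lists were chosen with earlier results of these data known. Named genes are those past the threshold without overlap of samples (up to 12 or 8 each way by log2 fold change; the 5 smallest p-values where fewer than 5 passed), the highest gene of each family, and a fixed set of neuronal, glial and cardiac channels with Kcnq1ot1; other members named were picked after their values were seen. Partner genes named are those past the threshold at day 6 and Rest. Non-coding rows other than Kcnq1ot1 were set apart after the rows were seen. File loci had 1 added to their start. Alternatives were other pseudocounts, filters, normalizations, replicate blocks, variance models, sample sets and a fold rule without a test, and subtraction of chromosome medians. Some genes that meet these rules are counted but not reported by name here.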

Additional observations from a re-analysis of the deposited data

Results flagged for a closer look

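Cacng4 was singled out because the difference between the genotypes changed between the days by a test of that difference: -1.82 ± 0.28 on the log2(FPKM + 1) scale (limma adjusted p = 0.0288), with the wild-type samples of day 6 at 6.42 and 5.90 FPKM and those of Pcgf5-/- at 1.87 and 1.67 FPKM. As given above, that call was lost in several fits that left out 1 sample. It was also lost with 0.1 FPKM added in place of 1 (limma adjusted p = 0.0662).

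Kcnk2 (TREK-1, a mechanically gated background channel), Kcnk13 and Kcnu1 were singled out because their samples moved in opposite directions over the days in the 2 genotypes; they were below the filter, and the difference was not tested in the fit described above. Kcnk2 was at 0.203 and 0.0764 FPKM in wild type at day 0 and 0.916 and 0.629 FPKM at day 6, and in Pcgf5-/- at 0.352 and 0.388 FPKM and then at 0.293 and 0.227 FPKM. The change of the mean in Pcgf5-/- minus that in wild type was -0.743 FPKM for Kcnk2, -0.135 FPKM for Kcnk13 and 0.242 FPKM for Kcnu1, a channel known from sperm. In the fit without a filter the difference had limma adjusted p-values of 0.0763, 0.310 and 0.116. Kcnk13 was listed at 0 in 3 of the 8 samples and Kcnu1 in 1.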

How the results depend on the processing

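The number of channel genes past the threshold changed under several settings. For most settings here and below the share over all rows is not given, so these counts describe the settings only. With no filter on low values, 136 channel rows were fitted. The number was then 56 over the days in wild type and 38 over the days in Pcgf5-/-. It was 17 between the genotypes at day 6 and 0 for the difference between the days. With a minimum on the mean of all samples, 25 channel rows were fitted, and the number was 15, 11 and 4 for the first 3 of these comparisons. Adding 0.1 in place of 1 gave 5 at day 6 and 0 for the difference between the days. Quantile normalization gave 11 over the days in Pcgf5-/-. The fold rule without a test gave 19 at day 6 and 5 at day 0. No variance trend gave 2 for the difference between the days, as did subtraction of chromosome medians, which also reversed Kcnj12 to -0.0221 and Cacng4 to -0.0294 at day 0. Leaving out 1 sample gave 19 to 24 over the days in wild type, 6 to 20 over the days in Pcgf5-/-, 1 to 8 at day 6, 0 to 0 at day 0 and 0 to 2 for the difference between the days. Where an arm was left with 1 sample, that sample was assumed to vary like the other groups. The cause of these differences was not tested.

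Correlations of the replicate differences were 0.10 between the genotypes at day 0, 0.39 at day 6 and from -0.08 to -0.02 across the days, so same-numbered samples deviated together within a day, most at day 6, and not across the days. The labels give no shared batch or culture for a number, and no block was used in the reported fit. With a replicate block the counts were 25, 19, 10, 0 and 1 in the order above, and with a replicate block within each day they were 27, 21, 11, 1 (Kcnab3) and 2. With 2 samples per condition, a gene that missed the threshold is not shown to be unchanged.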
